A study of Mus musculus with 3 samples.

Results

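The genes described here are 10 genes known to be induced by low oxygen that lie outside glycolysis: Ankrd37, Bnip3, Egln3, Vegfa, Mgarp, Ak4, P4ha1, Ndrg1, Kdm3a and Ddit4. They were taken by name, older symbols included, from a mouse array that measured 34770 gene and transcript names, and 16 of its 55657 probes read them. The genes were chosen with their values on these arrays known, so their differences from untreated cells are a description and not a test.

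RNA came from HoxA9-Meis1 AML cells, murine acute myeloid leukaemia cells (strain C57Bl/6) taken from whole bone marrow and cultured in SFEM medium. The cells were left untreated, given 3.4 µM of the compound Pyrydopyrazine A2, or given 1α-hydroxy vitamin D3 (D3V) together with all-trans retinoic acid (RA), 10 µM of each, all for 24 h. From each, 50 ng of total RNA was amplified with a low-input kit. Each condition was measured on 1 Agilent array, so there is no replicate, no test between conditions was possible, and every difference is between single arrays. The labels give no oxygen level for the cultures. The aim stated in the labels was to compare the expression of treated cells with that of untreated cells.

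All 3 arrays lay on 1 slide and were read in 1 scan. Between 46.0% and 46.8% of spots were well above background, and none was saturated. The median SD over probes spotted repeatedly was 0.0606 to 0.0703 (log2). The authors' deposited value table also has a column for untreated cells, here the value table control, whose ranks equal those of no scanner array. Its log2 difference from the untreated array had an SD of 0.284 over 17003 genes, of which 0.941% were 2-fold or more apart. That SD is the one spread between control sources at hand, and it is not a spread between replicate arrays. Over all spots the value table control had a Spearman correlation of 0.9356 with the untreated array. With the arrays labelled RA+D3V and A2 it was 0.9233 and 0.9245. The names of the treated samples disagree between the sources. The value table column named A2 has the ranks of the scanner array labelled RA+D3V, and the column named RA+D3V has those of the array labelled A2 (Spearman 1 for both). The arrays are called by their scanner labels, and if the value table is right, each A2 below is RA+D3V and the reverse. Of 10 myeloid markers, all were well above background on the 3 arrays. Hoxa9, for which the cells are named, was too, whereas Meis1 was not on any array.

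Cells sense oxygen through the hypoxia-inducible factors (HIF). In air, prolyl hydroxylases of the Egln family mark the HIF alpha subunits for capture by the Vhl protein and destruction. In low oxygen, or when the hydroxylases fail for lack of iron or oxoglutarate, the alpha subunit persists, pairs with Arnt and binds hypoxia response elements near its target genes. In myeloid cells HIF is also engaged without low oxygen, by inflammatory signals. The HIF programme is best known for glycolysis. Its other arms act on oxygen sensing itself, on mitochondria, on blood vessel growth, on matrix and chromatin, and on protein synthesis through mTORC1, the kinase complex that drives growth.

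The core of the hypoxia response element is ACGTG or GCGTG. Promoters from RefSeq (GRCm38.p6) were found for 9 of the 10 genes. The core was searched on both strands in the 250 bases before the outermost start of each gene. It was present in 8 of the 9. Of 27025 genes with such a window 38.6% held it, and of the 9834 measured on all 3 arrays 55.9% did. The windows below are those of the 5 genes measured on all 3 arrays that differed most from untreated cells on both treated arrays, and of Vegfa, the gene without a match. They are printed 5′ to 3′ along the gene, with the core, on either strand, in capitals. All are on the minus strand: Ankrd37 at chr8:45999851-46000100, Bnip3 at chr7:138909507-138909756, Egln3 at chr12:54203875-54204124, Mgarp at chr3:51396548-51396797, Ddit4 at chr10:59951771-59952020 and Vegfa at chr17:46032378-46032627.

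Ankrd37: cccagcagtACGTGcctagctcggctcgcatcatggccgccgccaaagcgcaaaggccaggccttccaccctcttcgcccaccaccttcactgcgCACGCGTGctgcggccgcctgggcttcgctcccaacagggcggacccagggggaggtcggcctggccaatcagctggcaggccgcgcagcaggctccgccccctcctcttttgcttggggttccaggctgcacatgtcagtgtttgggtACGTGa
Bnip3: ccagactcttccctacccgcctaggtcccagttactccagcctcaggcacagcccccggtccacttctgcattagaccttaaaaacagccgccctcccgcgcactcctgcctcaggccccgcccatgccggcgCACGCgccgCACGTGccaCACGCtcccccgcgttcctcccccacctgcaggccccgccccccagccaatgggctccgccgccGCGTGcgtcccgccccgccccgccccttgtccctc
Egln3: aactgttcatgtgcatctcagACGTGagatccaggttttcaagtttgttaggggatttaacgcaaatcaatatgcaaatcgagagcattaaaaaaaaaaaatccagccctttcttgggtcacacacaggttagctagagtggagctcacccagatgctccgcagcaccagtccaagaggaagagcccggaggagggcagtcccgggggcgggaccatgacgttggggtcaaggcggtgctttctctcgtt
Mgarp: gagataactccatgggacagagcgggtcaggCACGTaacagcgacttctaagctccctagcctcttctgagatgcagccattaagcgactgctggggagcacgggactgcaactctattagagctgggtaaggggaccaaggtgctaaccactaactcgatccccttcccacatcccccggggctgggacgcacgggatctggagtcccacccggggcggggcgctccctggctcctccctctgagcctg
Ddit4: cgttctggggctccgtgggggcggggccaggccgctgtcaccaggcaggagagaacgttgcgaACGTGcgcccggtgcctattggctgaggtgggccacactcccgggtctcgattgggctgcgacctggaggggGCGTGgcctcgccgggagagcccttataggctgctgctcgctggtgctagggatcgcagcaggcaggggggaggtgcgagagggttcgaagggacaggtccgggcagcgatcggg
Vegfa: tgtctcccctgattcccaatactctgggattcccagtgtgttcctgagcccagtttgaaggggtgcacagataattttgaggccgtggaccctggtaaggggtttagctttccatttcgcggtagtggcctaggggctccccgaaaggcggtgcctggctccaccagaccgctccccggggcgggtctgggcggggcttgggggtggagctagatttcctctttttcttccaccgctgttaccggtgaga

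The windows differ in how many cores they hold and where. Bnip3 holds 5 matches, of which the pair between 108 and 103 bases before the start is a palindrome read on both strands, so it counts on each. Ankrd37 holds 4, a pair of them overlapping at 155 to 148 bases and another lying 6 to 2 bases before the start. P4ha1 holds 3 and Ddit4 and Ak4 hold 2 each. Egln3, Mgarp and Kdm3a hold 1 each, at 229 to 225, 219 to 215 and 27 to 23 bases before the start. Vegfa has a second start in the table, Kdm3a 3 in all and Ak4 4. Those others were not searched. The GC content of these windows had a median of 61.6%, against 59.2% for genes measured on all 3 arrays. A match is a run of letters in this window and says nothing of a factor's binding.

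**Figure D1:**
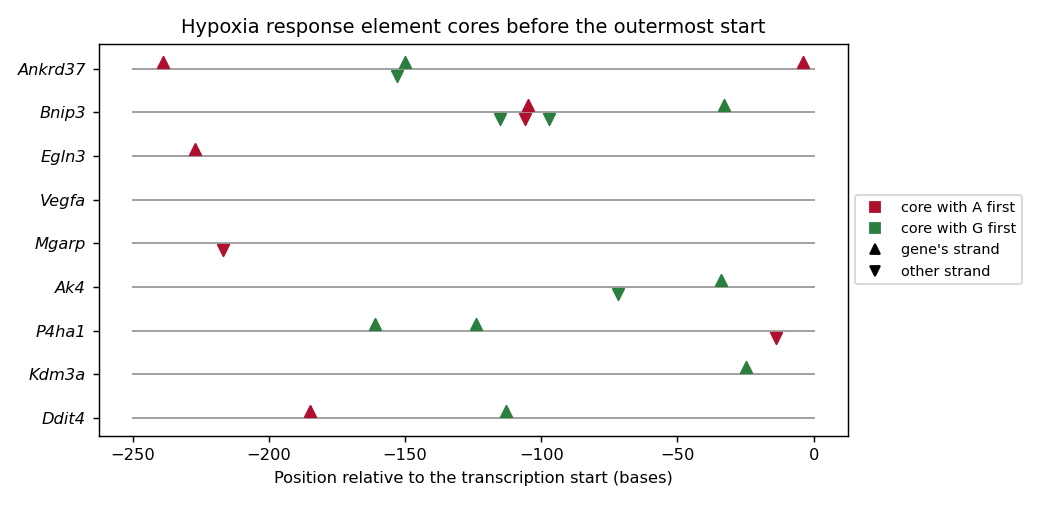
Position of each core match, in bases relative to the outermost transcription start (0 at the right), for the 9 genes with a promoter in the RefSeq table. Upward triangles are matches on the gene's strand and downward ones on the other strand, with red for ACGTG and green for GCGTG. Bnip3 and Ankrd37 carry 5 and 4 matches and Vegfa none.

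Levels below are the log2 processed signal of a probe minus that of the array's 75th percentile. They compare arrays for a given probe, never a probe with another. Exon or UTR annotation in mm9, the build of the probe positions, was not used here. A gene is represented by its probe with the highest mean signal. It counted as measured in a comparison where both arrays flagged that probe well above background. A difference of at least 2-fold is a log2 difference of at least 1.

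Of the 10 genes, 9 were measured on all 3 arrays. All 9 lay above their untreated level on both treated arrays, and 8 did so by at least 2-fold on each. Over all 17279 genes and transcripts measured, 47.7% lay above untreated cells on the array labelled A2, and 48.2% did so for RA+D3V. By 2-fold or more, 7.92% were higher and 6.46% lower on the array labelled A2. For the array labelled RA+D3V the shares were 7.81% and 5.04%. On both arrays 3.48% were higher by that margin. The median log2 difference of the 9 was 3.10 for the array labelled A2 and 2.83 for RA+D3V, where all genes had medians of -0.03 and -0.03. Both comparisons use the same untreated array, and the genes were picked for these values, so nothing is read from the counts. The tenth gene, Ak4, was below background in untreated cells and is given as a bound.

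**Figure D2:**
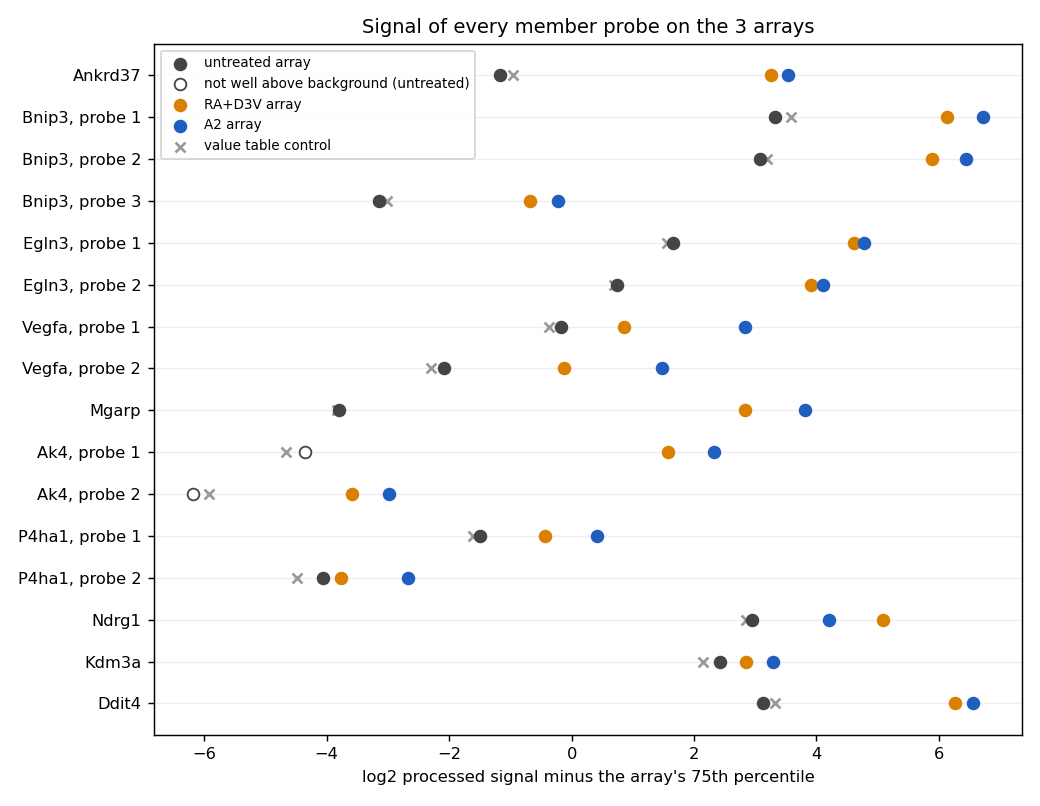
Log2 processed signal minus the array's 75th percentile (x axis) for each of the 16 probes (rows) on the untreated (grey), RA+D3V (orange) and A2 (blue) arrays, with the value table control as a cross. Open circles are signals not well above background. In 15 of the 16 rows the blue point lies furthest right, and in the Ndrg1 row the orange one does.

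Among the genes of oxygen sensing and chromatin, Egln3 showed a large difference and Kdm3a a small one. Egln3 encodes a HIF prolyl hydroxylase that is itself a HIF target and so forms a feedback loop. Its level was 1.66 in untreated cells, 4.61 on the array labelled RA+D3V and 4.77 on the array labelled A2 (probe at chromosome 12, 55280953 to 55281012, mm9). Both treated arrays were thus high, by log2 differences of 2.95 and 3.10, and they lay only 0.16 apart, less than the SD between control sources. A second Egln3 probe gave 3.17 and 3.36. Kdm3a encodes a histone demethylase that removes methyl groups from lysine 9 of histone H3. Its levels were 2.42, 2.85 and 3.29 in the same order, so that it lay within 2-fold of untreated cells on both arrays (0.43 and 0.86). Against the value table control its differences were 0.80 and 1.13, the second past 2-fold.

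Among the mitochondrial genes, Mgarp had the highest difference of the 17279 genes and transcripts measured on the array labelled RA+D3V. It ranked at position 3 on the array labelled A2. Mgarp encodes a mitochondrial membrane protein involved in the transport and shape of mitochondria. Its level was -3.80 in untreated cells, 2.84 on the array labelled RA+D3V and 3.81 on the array labelled A2 (chromosome 3, 51192355 to 51192414, mm9). The log2 differences were 6.64 and 7.61, or 99.6-fold and 196-fold. The untreated signal lay just above the dimmest signal called well above background on that array (-4.19), so the folds rest on a dim base. With background correction by normexp they were 4.80 and 5.78. The value table control put Mgarp at -3.83, close to the array's own value.

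Bnip3, a receptor on the outer mitochondrial membrane that directs mitochondria to autophagy, had levels of 3.32, 6.14 and 6.72 on the untreated, RA+D3V and A2 arrays (chromosome 7, 146082760 to 146082819, mm9). It was 7.09-fold higher on the array labelled RA+D3V and 10.6-fold on the array labelled A2. Its 3 probes ran together, with log2 differences of 2.83, 2.81 and 2.45 on the array labelled RA+D3V and 3.40, 3.37 and 2.92 on the array labelled A2. Its value table control lay 0.26 above the untreated array, the largest such excess among the 9 genes.

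Ak4, an adenylate kinase of the mitochondrial matrix, was not well above background in untreated cells on either of its probes. On its brighter probe the level was 1.58 on the array labelled RA+D3V and 2.33 on the array labelled A2, against an untreated signal of -4.36 (chromosome 4, 101139464 to 101139523, mm9). It was at least 54.5-fold higher on the first and at least 91.4-fold on the second, taking as base the dimmest untreated signal called well above background. The value table control, at -4.67, was low as well.

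Vegfa, the secreted growth factor that drives the sprouting of blood vessels, separated the treated arrays most. Its level was -0.17 in untreated cells, 0.86 on the array labelled RA+D3V and 2.84 on the array labelled A2 (chromosome 17, 46154387 to 46154446, mm9). The difference from untreated cells was 1.04 on the array labelled RA+D3V, just past 2-fold, and 3.01 on the array labelled A2. With normexp the former was 0.82 and no longer 2-fold. A second probe, at 46162376 to 46162435, gave 1.95 and 3.55, so the probes disagree on the size of the smaller difference and share the order of the arrays.

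P4ha1 encodes a catalytic subunit of the prolyl hydroxylase that matures collagen. Its levels were -1.49, -0.44 and 0.41 on the untreated, RA+D3V and A2 arrays (chromosome 10, 58835625 to 58835684, mm9). The log2 differences were 1.05 and 1.90, or 2.08-fold and 3.74-fold. The 2-fold call on the array labelled RA+D3V did not hold with normexp (0.80) or as the median of both probes (0.68). The dimmer probe gave 0.30 and 1.39 from signals close to background.

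Ddit4, an inhibitor of mTORC1 that answers to several stresses besides hypoxia, had levels of 3.12, 6.26 and 6.55 on the untreated, RA+D3V and A2 arrays (chromosome 10, 59412486 to 59412545, mm9). It was 8.81-fold higher on the array labelled RA+D3V and 10.8-fold on the array labelled A2, and the treated arrays lay 0.30 apart. Ndrg1, a gene induced in stress and differentiation, stood out in order. Its levels were 2.95, 5.08 and 4.21, so it was 4.39-fold higher on the array labelled RA+D3V and 2.40-fold on the array labelled A2 (chromosome 15, 66761057 to 66761116, mm9). Ankrd37, a small ankyrin repeat protein, had levels of -1.17, 3.26 and 3.54 and was 21.6-fold and 26.2-fold higher (chromosome 8, 47082404 to 47082463, mm9). Its control sources lay at -1.17 and -0.95, far below both treated arrays.

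**Figure D3:**
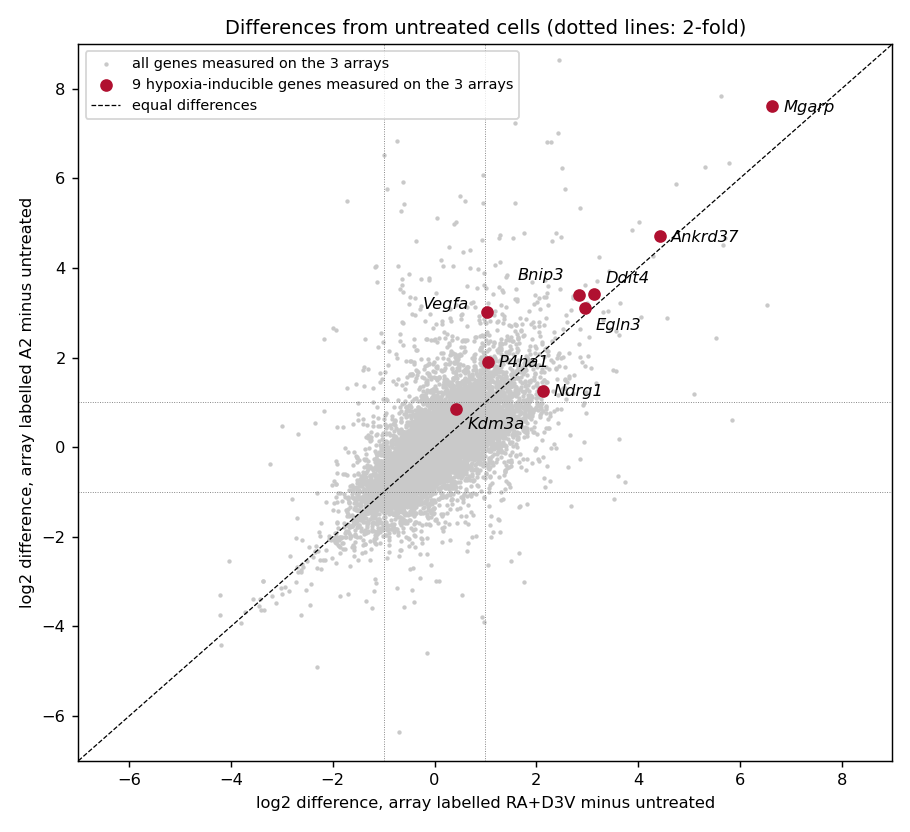
Log2 difference from untreated cells for RA+D3V (x axis) and A2 (y axis), by scanner label, for 17003 genes and transcripts measured on all 3 arrays (grey) and 9 of the genes described (red). The dashed line marks equal differences and the dotted lines 2-fold. Vegfa lies above the dashed line, at 1.04 and 3.01, and Ndrg1 below it, at 2.13 and 1.26.

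The treated arrays were next set against each other, where all 10 genes could be measured. On the array labelled A2, 9 were above their level on the array labelled RA+D3V, as were 47.9% of all 17628 genes and transcripts measured there. By at least 2-fold, 1 was higher, Vegfa, and 0 lower, where 3.77% and 4.04% of all were. The median of the 10 was 0.50 against -0.02 for all. The differences of 6 genes exceeded 0.568, which is 2 SD of the difference between control sources. That limit is a yardstick and not a test, as the SD is not one between replicate arrays. The 6 were Vegfa (1.98), Mgarp (0.97), P4ha1 (0.85), Ak4 (0.74), Bnip3 (0.57) and, in the other direction, Ndrg1 (-0.87). Bnip3 lay at that limit: its other probes gave 0.56 and 0.46, and it was under the limit with scaling to the median (0.52), quantile normalization (0.54) and the median over probes (0.56). Kdm3a (0.44) and Ddit4 (0.30) lay beyond 1 SD, and Ankrd37 (0.28) and Egln3 (0.16) within it. Ddit4 was within 1 SD with scaling to the median (0.24) and quantile normalization (0.26). The second probes of Vegfa (1.60), P4ha1 (1.09) and Ak4 (0.59) gave the same order of arrays. If the treated labels are the reverse of those on the scanner files, the sign of each of these values turns.

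**Figure D4:**
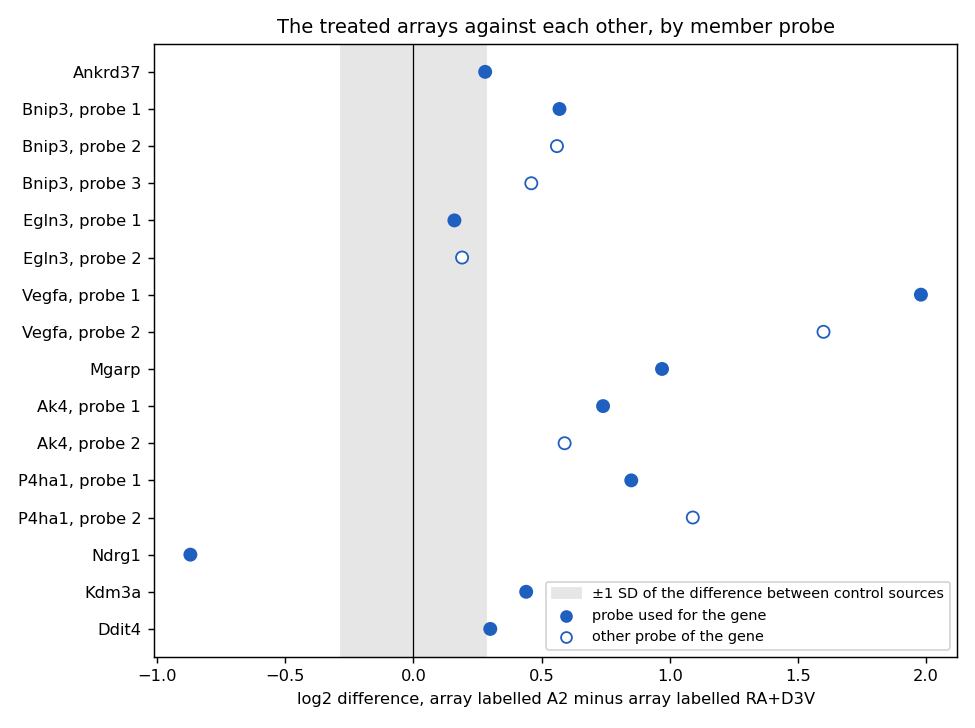
Log2 difference between the array labelled A2 and the array labelled RA+D3V (x axis) for each of the 16 probes (rows). Filled points are the probe used for the gene, open points its other probes, and the grey band spans 1 SD (0.284) of the difference between control sources. Vegfa lies furthest to the right (1.98) and Ndrg1 is the only gene left of 0 (-0.87).

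The genes that run the pathway were described as well. Their medians are not weighed against those of the genes above, which were picked for their values. Of 15 genes of the HIF machinery, 14 were measured against untreated cells on either treated array. The array labelled A2 had 3 of them higher by 2-fold or more and 0 lower (median 0.34). On the array labelled RA+D3V 1 was higher and 0 lower (median 0.03). Hif1a, an oxygen-regulated alpha subunit, had levels of 2.41, 2.30 and 4.28 on the untreated, RA+D3V and A2 arrays. Its RNA was thus high only on the array labelled A2 of these 3, by 1.87 against -0.11. Egln1, the main prolyl hydroxylase, went the same way (1.55 against 0.39).

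Hif3a, an alpha subunit gene whose products include inhibitors of HIF, was higher on both, by 1.82 for A2 and 2.44 for RA+D3V, by scanner label. Its dimmer probe gave 0.45 and 0.76. The probes of Epas1, the other main alpha subunit, disagreed. The brightest differed by 0.56 and 0.61, whereas the other 2 differed by 3.26 and 3.06 on the array labelled A2 and by -0.66 and -0.53 on the array labelled RA+D3V. Arnt2, a partner subunit, was above background on the array labelled A2 alone, at least 8.65-fold above untreated cells. Arnt (0.57 and 0.26), Vhl (0.51 and -0.20), Egln2 (0.35 and 0.34) and Hif1an (0.18 and 0.04) lay within 2-fold on the arrays labelled A2 and RA+D3V. So did the coactivators Ep300 (-0.73 and -0.18) and Crebbp (0.33 and 0.52) and the HIF competitor Cited2 (-0.76 and 0.02). The ubiquitin ligases Siah1a (-0.60 and -0.94) and Siah2 (-0.79 and -0.76) and the chaperone Hsp90ab1 (-0.39 and -0.26) did as well.

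A list of 45 further hypoxia-inducible genes outside glycolysis was examined in the same way. It was also drawn up with some results of these arrays known. On any array 10 were not well above background, among them Epo, Edn1, Lox and Plod2, and 34 were measured on all 3. The array labelled A2 had 17 higher by 2-fold or more and 3 lower (median 1.01). On the array labelled RA+D3V 14 were higher and 1 lower (median 0.74). Both treated arrays had 12 of the 34 higher by that margin.

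P4ha2, the sister subunit of P4ha1, was the highest, with log2 differences of 4.84 for the array labelled A2 and 3.88 for RA+D3V. Selenbp1, a selenium-binding methanethiol oxidase, followed (3.94 and 3.44). Next were the lactate exporter Slc16a3 (3.52 and 2.47) and Bnip3l, the mitophagy receptor related to Bnip3 (2.80 and 2.05). The lowest were the carbonic anhydrase Car12 (-3.04 and -1.14), the growth factor Pgf (-1.12 and -0.46) and the lipase inhibitor Angptl4 (-1.27 and 0.35). Car9, a widely used marker of hypoxia, lay near its untreated level on both (0.04 and 0.14). The core element was present before the start of 23 of the 32 genes of this list found in the promoter table. That is 71.9%, against 55.9% of the genes measured on all 3 arrays, and the median GC contents were 61.4% and 59.2%.

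**Figure D5:**
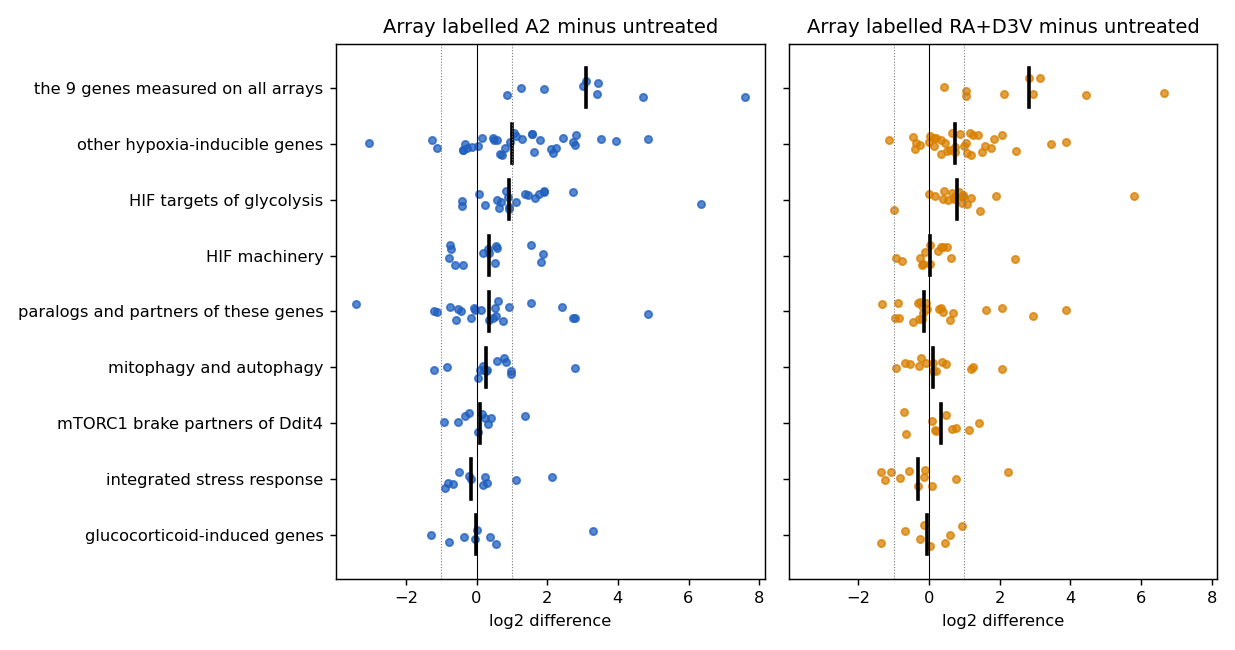
Log2 difference from untreated cells (x axis) on the array labelled A2 (left) and RA+D3V (right) for each measured gene (points) of 9 lists (rows), with the list's median as a black bar and dotted lines at 2-fold. The top row holds the genes described here, with medians of 3.10 and 2.83. The further hypoxia-inducible genes have medians of 1.01 and 0.74, and the integrated stress response genes of -0.16 and -0.30.

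Of 20 HIF targets in glycolysis, all measured, 9 were higher by 2-fold or more and 0 lower on the array labelled A2 (median 0.92). For the array labelled RA+D3V 5 were higher and 1 lower (median 0.79). Aldoc was the highest (6.34 and 5.79) and Eno2 the lowest (-0.42 and -1.0).

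The relatives and partners of the 10 genes differed in both directions. Of 28, 23 were measured on the array labelled A2, where 5 were higher by 2-fold or more and 3 lower, and 22 on the array labelled RA+D3V, where 4 were higher and 1 lower. The medians were 0.35 and -0.13. Beside P4ha2 and Bnip3l, the higher ones on the array labelled A2 were Egln1 and the coreceptors for Vegfa, Nrp1 (2.42 against -0.17 on the array labelled RA+D3V) and Nrp2 (2.72 against 1.60). The receptor Flt1 was lower on both (-3.42 and -1.34), with -2.82 and -1.89 on its second probe. The receptor Kdr lay within 2-fold on its brighter probe (0.60 and 0.67), and its other probe was too dim to be measured.

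Among adenylate kinases Ak1 was higher on the array labelled RA+D3V (2.93 against 0.12 on the array labelled A2), the opposite order to Ak4. Between the treated arrays Ak3 had the same order as Ak4, but against untreated cells it went the other way on the array labelled RA+D3V. It was below background on the array labelled RA+D3V alone, at least 4.2-fold lower there than in untreated cells and at least 7-fold lower than for A2, and such bounds are not in the counts above. Vegfb (0.54 and -0.21), P4hb (0.51 and 0.27), Ndrg3 (-0.06 and -0.26), Kdm3b (-0.03 and 0.58) and Jmjd1c (0.48 and -0.07) lay within 2-fold on the arrays labelled A2 and RA+D3V. The other Jmjd1c probe gave 1.11 and 0.67, the first past 2-fold. Vegfc, Vegfd, Ak5 and Ddit4l were not well above background on any array.

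Other pathways in which some of the genes act were set beside them. Of 14 measured mitophagy and autophagy genes, Bnip3l alone was higher by 2-fold or more for A2 (median 0.28). On the array labelled RA+D3V 3 were, Bnip3l, Ulk1 (1.23) and Calcoco2 (1.18), with a list median of 0.10.

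Of 10 measured genes around mTORC1, Txnip was at least 2-fold higher on both arrays (1.38 and 1.42). Sesn3 was so on the array labelled RA+D3V alone (1.14 against -0.32), and the list medians were 0.10 and 0.34. Ddit4 is also a target of the integrated stress response. Of 11 measured genes of that response 2 were higher by 2-fold or more and 0 lower on the array labelled A2, and 1 higher and 3 lower on the array labelled RA+D3V (medians -0.16 and -0.30). By the mean of both differences Atf3 was the highest (2.15 and 2.23). Lowest were Chac1 (-0.81 and -1.24) and Asns (-0.67 and -1.37). Of 8 glucocorticoid-induced genes, another class of which Ddit4 is part, 1 was higher and 1 lower on the array labelled A2 and 0 higher and 1 lower on the array labelled RA+D3V (medians -0.01 and -0.05). Sgk1 had the largest value (3.30 on the array labelled A2 against 0.45).

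The genes whose pair of differences lay nearest to the median pair of the 9 genes (3.10 and 2.83) were found among 12319 genes named in the RefSeq table and measured on all 3 arrays. By Euclidean distance they were Gas7 (0.290), Aldh1l1 (0.295), Shtn1 (0.376), Tmem53 (0.475) and Rgs11 (0.536). With 3 arrays this likeness rests on a pair of differences a gene.

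The RNA came from bulk cultures, in which fewer cells of a type and less RNA per cell cannot be told apart. Markers of other cells moved in part with the genes described. Of 5 megakaryocyte markers Pf4 (4.50 and 5.68 on the arrays labelled A2 and RA+D3V) and Vwf (3.70 and 1.91) were higher. The defining markers Itga2b, Gp9 and Gp1bb were not well above background on any array. The summed level of that list, in units of the 75th percentile, was 0.719 in untreated cells, 20.3 on the array labelled RA+D3V and 11.1 on the array labelled A2. The 7 endothelial and stromal markers summed to 5.77, 9.18 and 8.58 in the same order, with 3, 3 and 4 above background and Cdh5 on none. These sums are led by 1 Kdr probe, with log2 levels of 2.34, 3.01 and 2.94. The other Kdr probe stayed at background level in every condition (-5.98, -5.86 and -6.06). The sums thus follow that single probe rather than the list as a whole. Col1a1 was above background for A2 alone, at least 4.72-fold over untreated cells. The part of these cells in the result was not tested.

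The myeloid markers differed in both directions. Their median log2 difference was 0.14 on the array labelled A2, where 2 of 10 were higher by 2-fold or more and 1 lower. It was 0.28 on the array labelled RA+D3V, with 3 higher and 1 lower. The integrin Itgam (2.37 and 2.31 for A2 and RA+D3V) and the lysosomal protein Cd68 (1.55 and 1.09) were higher on both, and the lysozyme gene Lyz2 was so for RA+D3V (0.55 and 1.82). The granule enzyme Mpo was lower on both (-2.22 and -1.57). The list's summed level, 1380, 1050 and 907 on the untreated, RA+D3V and A2 arrays, is led by its brightest probes, Mpo among them.

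T and NK markers were lower in part, with medians of -1.81 for A2 and -1.06 for RA+D3V. Cd3d (-1.86 and -1.55) and Cd2 (-1.81 and -1.89) were lower on both, whereas Cd3e lay close to untreated cells (-0.25 and -0.23). Nkg7 lay within 2-fold on its brighter probe (0.22 and -0.56), and its other probe gave -0.21 and -1.36. Gzma was lower for A2 (-2.09) and, being below background there, at least 5.27-fold lower for RA+D3V. That list had 5, 4 and 5 of 7 markers above background on the untreated, RA+D3V and A2 arrays and summed to 17.5, 11.7 and 16.8. Its sum is led by the Nkg7 probe, with log2 levels of 3.40, 2.84 and 3.62. In the same order the erythroid list had 4, 4 and 5 of 7 and summed to 3.91, 2.52 and 2.49. Hbb-b1 was lower on both treated arrays (-1.06 and -1.10 for A2 and RA+D3V). Hba-a1 (-0.75 and -0.70) and Slc4a1 (-0.14 and -0.02) lay within 2-fold. Epor, below background in untreated cells, was at least 1.69-fold and 1.32-fold higher for A2 and RA+D3V. Klf1 was above background for A2 alone, at least 1.6-fold over untreated cells. Alas2 was above background in untreated cells alone, at least 1.46-fold over A2 and 1.27-fold over RA+D3V. B cell markers were above background in 4 of 5 on each array and lay within 2-fold. They summed to 18.9, 12.5 and 18.6 on the untreated, RA+D3V and A2 arrays. Mast and basophil markers were above in 2, 2 and 1 of 5, with Cpa3 below background for A2 alone, at least 2.47-fold under untreated cells. These sums compare arrays within a list and not lists with each other. The part of these cells in the result was not tested either.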

How the data were processed

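Gene expression was measured on 3 one-colour Agilent arrays, 1 for each condition, with probe positions in mm9. Per the file headers, the deposited scanner values are intensity from Agilent Feature Extraction 11.5.1.1, corrected by the authors for background and spatial trend and not scaled between arrays. Deposited flags tell which spots were uneven, saturated or well above background. The value table deposited by the authors holds linear intensity in columns that share 1 set of sorted values, as quantile normalization leaves them. Its processing is otherwise not given in the sources used here.

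Control spots and 25 uneven spots were left out, spots of a probe were averaged, and log2 processed signal minus the 75th percentile of each array was used. Probes were named from the RefSeq table by accession (27646), symbol (3400) or synonym (321), and 24290 kept the scanner file's name. A gene's probe was that with the highest mean level. Bounds take the dimmest signal well above background on the other array as base.

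With 1 array a condition no test across samples was run, and the number of arrays limits the precision. The members and lists were chosen with earlier results of these data known. All 10 genes and the HIF and paralog lists could be named, and from each other list at most 4 genes at the top and 3 at the bottom by the mean of both differences. Genes measured on only 1 array of a comparison could be named as well. Car9, Epo, Edn1, Lox and Plod2 were named after their values were seen. Some genes of the lists are not reported here. The steps were tested on simulated data. Python 3.11.15, pandas 2.3.3 and limma 3.58.1 in R 4.3.3 were used. Alternatives were normexp with an offset of 50, quantile normalization, scaling to the median of detected spots, the value table with its control, other filters on dim probes and the median over a gene's probes.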

Additional observations from a re-analysis of the deposited data

How the results depend on the processing

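The count of the genes at least 2-fold higher, their median and the count of the further hypoxia-inducible genes were recomputed under 7 alternatives, 6 for the comparison between treated arrays. Every count stayed within 1.5 times its value and no median moved by more than 0.284, the SD between control sources. The medians ranged from 2.98 to 3.28 for the array labelled A2, from 2.55 to 2.89 for the array labelled RA+D3V and from 0.44 to 0.51 between the treated arrays. The lowest counts came with normexp: 6 of the genes on the array labelled RA+D3V, and 13 and 10 further genes on the arrays labelled A2 and RA+D3V. Of single-gene values 10 of 185 moved by more than that SD and 0 reversed. Over all genes, normexp gave 746 higher and 531 lower by 2-fold for the array labelled RA+D3V (1350 and 871 otherwise), 951 and 721 for A2 (1369 and 1117), and 486 and 334 between treated arrays (665 and 713). With no filter on dim probes these were 4471 and 2039, 3742 and 2647, and 1785 and 2940, and the median of all genes moved to 0.187 for RA+D3V and -0.176 between treated arrays. No paired analysis was possible because each group holds 1 array. No replicate could be left out for the same reason. Dim signals limit the folds of Mgarp, Ak4 and the second P4ha1 probe.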
